A study of Homo sapiens with 112 samples.

Results

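The genes of fatty acid oxidation were followed by RNA-seq in VCaP and LAPC4 prostate cancer cells, which were stimulated with androgen and treated with the androgen receptor antagonist darolutamide. The 36 genes were chosen by name for their place in the breakdown of fatty acids in mitochondria and peroxisomes, and the rule that names them uses no measured value, although it was written with earlier results of these data known. A gene was tested in a cell line if at least 10 reads were counted in at least 4 of its libraries. By this filter 35 of the 36 genes were tested in VCaP, where PPARGC1A did not pass, and 35 in LAPC4, where CROT did not pass. They stood among 19266 tested genes in VCaP and 18204 in LAPC4, out of 58684 rows in the table, and 34 of them were among the 16578 genes tested in both lines.

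VCaP and LAPC4 are established human cell lines, and each was studied as a single line. VCaP cells carry the TMPRSS2-ERG fusion. Cells first spent 2 days in charcoal-stripped serum, which lowers hormone levels, and then received DMSO (vehicle), 1 nM of the synthetic androgen R1881, or the same dose of R1881 together with darolutamide at 500 nM (low dose) or 2 µM (high dose). RNA was collected after 8 or 22 h, which gave 16 groups and 112 libraries, 55 of VCaP and 57 of LAPC4. At 22 h, VCaP was represented by 8 libraries under DMSO, 9 under R1881, 4 at the low and 5 at the high dose, and LAPC4 by 7, 10, 5 and 5. At 8 h the numbers were 10, 10, 4 and 5 in VCaP and 10, 10, 5 and 5 in LAPC4. No group received darolutamide without R1881.

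Long-chain fatty acids enter mitochondria as carnitine esters, which are made, carried across the inner membrane and taken apart again by the carnitine shuttle. Inside, acyl-CoA dehydrogenases, hydratases, hydroxyacyl-CoA dehydrogenases and thiolases shorten the chain in repeated rounds, and the electrons pass through electron transfer flavoprotein to the respiratory chain. Peroxisomes shorten very long and branched chains with enzymes of their own, after AMACR has turned branched chains into the usable stereoisomer, and AMACR is widely used as a tissue marker of prostate cancer.

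The libraries held between 12188455 and 25201678 reads counted in genes, with a median of 20144050.5. ERG had 1578 to 21554 reads in every VCaP library and 0 or 1 in every LAPC4 library, while KLK2, KLK3, KRT8, KRT18 and EPCAM had reads in all libraries of both lines. Among markers of other cell types, COL1A2 was at 0 in all VCaP libraries and reached 3 reads in LAPC4. PTPRC reached 3 reads in VCaP and 7 in LAPC4. COL1A1, in contrast, had 7 to 40 reads in the VCaP libraries and 4 to 29 in those of LAPC4, and VIM had 0 to 5 and 5 to 33. ALB, a hepatocyte gene, lay between 2.22 and 125 CPM (counts scaled to the library's total reads and its TMM factor) in VCaP, and CHGA, a neuroendocrine marker, between 37.2 and 199 CPM; their part in the results below was not tested. Libraries of a group also differed in how read counts depended on the GC content of the gene. In LAPC4, control libraries numbered 1 to 5 and those numbered 6 and above differed in 3929 genes, among them HADH, ACADSB, CPT1A, ACADVL and PPARA, whereas in VCaP no gene differed by edgeR's adjusted p and 3 of the 35 fatty acid oxidation genes had an unadjusted p under 0.05.

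The sequences upstream of 5 genes whose levels moved with R1881 are given here, since 4 of them carry more CG dinucleotides than the median promoter and ACADVL fewer. Windows of 250 bases before the RefSeq start (GRCh38.p14) were found for 29 of the 36 genes. They held a median of 23 CG dinucleotides (range 2 to 41), against 11 over all 35116 promoters of the same length. The full windows of AMACR, ACAD8, SLC25A20, ACADSB and ACADVL held 18, 26, 16, 17 and 2. Each sequence below is the longest stretch of such a window without an annotated exon, written 5′ to 3′ on the strand of the gene, with CG in capitals. These stretches are shorter than the windows, so their CG counts can be lower. The AMACR sequence comes from chr5:34008105-34008300 on the minus strand and holds 17 CG, that of ACAD8 from chr11:134253371-134253547 on the plus strand with 13, that of SLC25A20 from chr3:48898905-48899132 on the minus strand with 15, that of ACADSB from chr10:123008813-123008978 on the plus strand with 10, and that of ACADVL from chr17:7216875-7217117 on the plus strand with 2.
AMACR: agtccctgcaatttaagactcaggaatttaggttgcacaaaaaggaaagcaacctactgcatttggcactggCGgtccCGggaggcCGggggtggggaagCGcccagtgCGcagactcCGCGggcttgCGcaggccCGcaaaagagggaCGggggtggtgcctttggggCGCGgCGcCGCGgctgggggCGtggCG
ACAD8: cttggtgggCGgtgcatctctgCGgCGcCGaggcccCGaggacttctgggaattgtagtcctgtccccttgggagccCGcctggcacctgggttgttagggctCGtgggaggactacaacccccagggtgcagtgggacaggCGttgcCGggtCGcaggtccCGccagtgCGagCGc
SLC25A20: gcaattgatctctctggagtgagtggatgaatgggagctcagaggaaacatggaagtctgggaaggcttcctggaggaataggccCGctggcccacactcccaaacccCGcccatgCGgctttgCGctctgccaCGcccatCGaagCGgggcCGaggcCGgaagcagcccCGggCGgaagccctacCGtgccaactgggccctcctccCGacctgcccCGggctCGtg
ACADSB: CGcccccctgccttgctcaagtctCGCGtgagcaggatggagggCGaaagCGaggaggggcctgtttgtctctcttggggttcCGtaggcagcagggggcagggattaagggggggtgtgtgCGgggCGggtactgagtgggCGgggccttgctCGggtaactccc
ACADVL: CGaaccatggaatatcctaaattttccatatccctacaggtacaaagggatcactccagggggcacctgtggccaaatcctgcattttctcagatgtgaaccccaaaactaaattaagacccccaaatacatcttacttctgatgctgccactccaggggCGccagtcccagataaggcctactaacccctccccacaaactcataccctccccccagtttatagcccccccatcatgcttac

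Both strands of the 250-base windows were searched for letters that resemble binding sites of nuclear receptors. The steroid receptor palindrome, which is AGAACA followed by 3 free bases and its own reverse complement, was in none of the 29 windows and in 0.00285% of all promoters. AGAACA by itself was in the PHYH window alone, against 12.4% of all promoters, and the shorter core ACANNNTGT, which lies inside the palindrome, in the PPARGC1A window alone, against 4.61%. The PPARGC1A window (chr4:24472906-24473155, minus strand) lies far upstream of that gene's annotated span (chr4:23755041-23904089). The letters AGGTCA, bound as a tandem repeat by PPAR and RXR receptors, was in none of the 29 windows, against 12.1% of all promoters. That repeat, AGGTCA 2 times with 1 free base between, was also in none, against 0.0171%. These counts describe the letters in the windows only.

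Under DMSO at 22 h, both lines expressed most of the pathway, with ECHS1 and HADHA among the highest per kilobase of annotated exon. The length joins all annotated exons of a gene, 1277 bases for ECHS1 and 24901 for HSD17B4, and can exceed that of the expressed transcript. The order of genes below therefore depends on the annotation. Per kilobase of annotated exon, ECHS1 (short-chain enoyl-CoA hydratase) and HADHA (the alpha subunit of the trifunctional protein) were highest in VCaP at 66.8 ± 4.87 and 63.3 ± 2.11 CPM per kb (SD, n = 8), and these neighbours overlapped between libraries. HADHB, the beta subunit, followed at 36.0 ± 1.41, with no overlap with its neighbours on either side, and then ACAT1 at 26.1 ± 1.52 and ECH1 at 23.0 ± 6.16, which overlapped. In LAPC4 the order was ECHS1 at 112 ± 6.47, ECH1 at 69.4 ± 15.0, HADHA at 54.1 ± 1.82 and ACADVL at 47.6 ± 6.27 CPM per kb (SD, n = 7), where ECH1 overlapped HADHA and HADHA overlapped ACADVL. The lowest levels in VCaP were those of DECR2, EHHADH and PPARGC1A, at 0.392, 0.313 and 0.00884 CPM per kb, and in LAPC4 those of ACAA2, PPARGC1A and CROT, at 0.350, 0.160 and 0.00404.

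**Figure D1:**
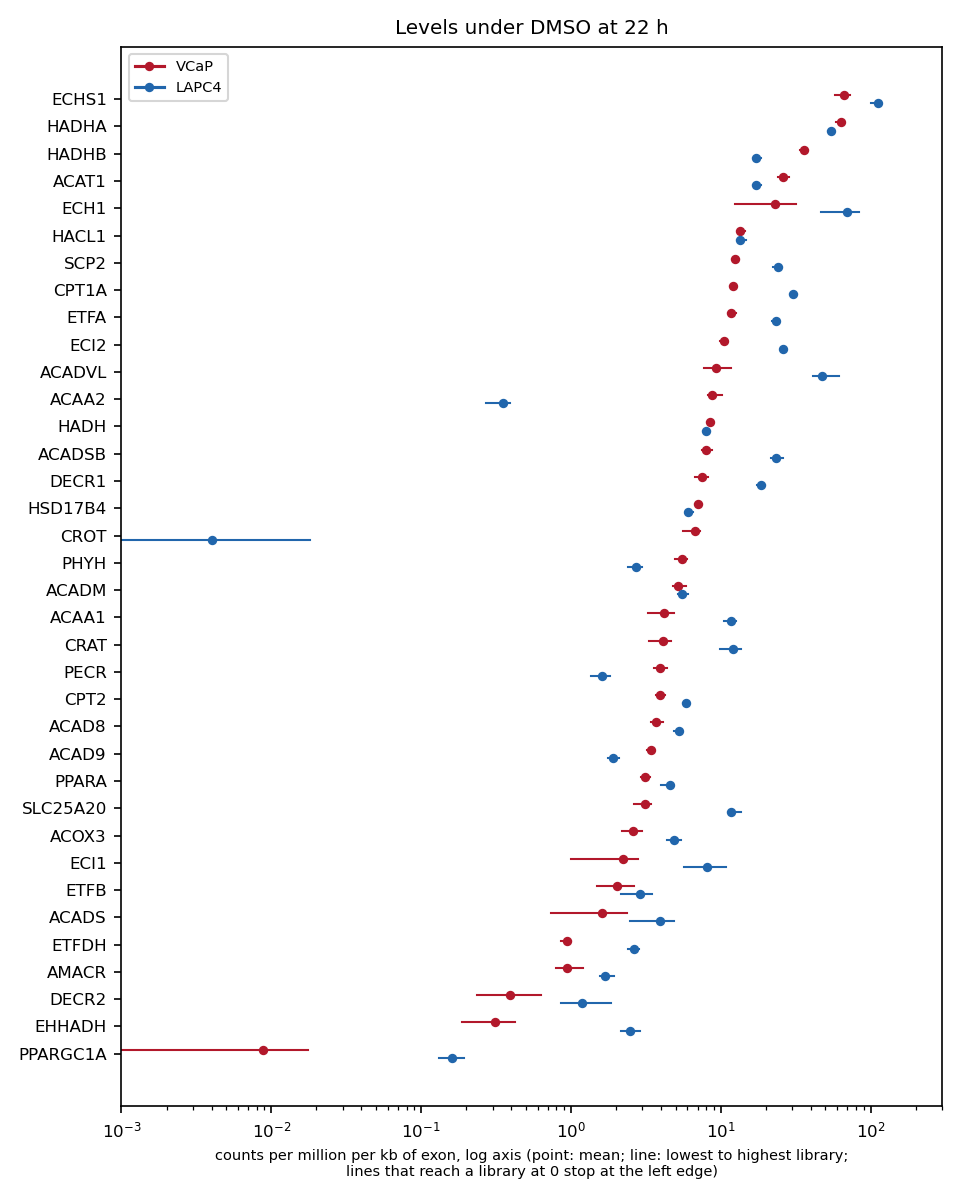
Level of each of the 36 genes under DMSO at 22 h in VCaP (red, 8 libraries) and LAPC4 (blue, 7 libraries), in CPM per kilobase of exon on a log axis, with the mean as a point and the lowest and highest library as a line. ACAA2 and CROT lie far higher in VCaP, and EHHADH and ACADVL higher in LAPC4.

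The starting levels of the 2 lines differed for nearly every gene. In a joint fit over both lines, 33 of 34 genes differed under DMSO at 22 h, against 85.5% of all genes tested, 11 of them higher in VCaP and 22 higher in LAPC4. ACAA2, a mitochondrial thiolase, was 30.8-fold higher in VCaP (log2 difference 4.95 ± 0.0834 SE). PECR, HADHB and PHYH followed at 1.60, 1.36 and 1.32 on the log2 scale. EHHADH, the bifunctional enzyme of peroxisomes, was 6.33-fold lower in VCaP (log2 difference -2.66 ± 0.112 SE), and ACADVL and SLC25A20 had log2 differences of -2.06 and -1.61. CROT, which makes medium-chain carnitine esters that leave the peroxisome, was at 28.0 to 36.1 CPM in the VCaP libraries and at 0 to 0.0913 in those of LAPC4.

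In VCaP at 22 h, R1881 raised the carnitine shuttle, most enzymes of peroxisomal beta-oxidation and the valine-pathway gene ACAD8, and lowered most of the later mitochondrial steps. AMACR rose 10.8-fold, ACAD8 6.93-fold and SLC25A20 by 1.84 on the log2 scale, while EHHADH fell by 1.70, ACADSB by 1.17 and ACAA2 by 0.88. Of 35 genes, 20 rose and 9 fell, and 29 called genes (82.9%) stand beside 77.4% of all genes tested, of which 37.4% were higher and 40% lower. An absolute log2 fold change above 1 was reached by 8 of them, against 23.9% of all genes. The median log2 fold change was 0.20 over the 35 genes and -0.03 over all genes. The libraries of both groups did not overlap for 20 of the 36 genes listed, 14 higher and 6 lower, beside 46.8% of all genes tested. In RNA from whole cultures, a lower level cannot be told apart from fewer cells that express the gene. The summed level of all 36 genes was 1978 ± 17.4 CPM under DMSO and 2417 ± 56.2 under R1881 (SD). It did not move alike by role. The sum of the acyl-CoA dehydrogenases went from 238 to 415 CPM, and most of that gain was made by ACAD8 alone. The sum of the mitochondrial hydratases, hydroxyacyl dehydrogenases and thiolases went from 819 to 709 CPM.

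**Figure D2:**
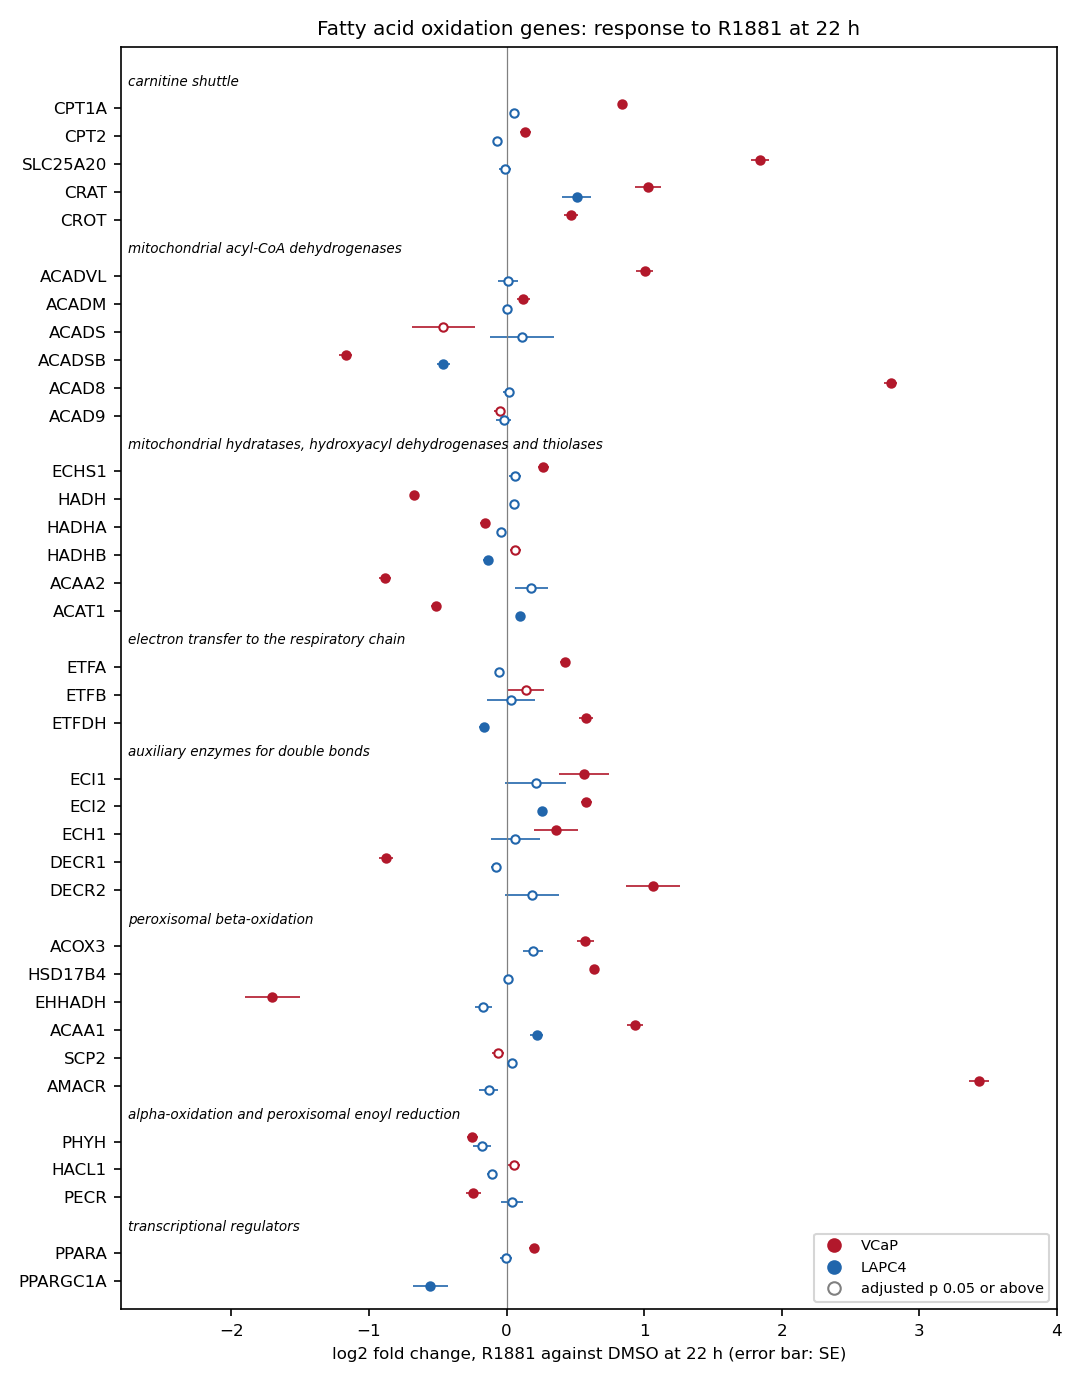
Log2 fold change of R1881 against DMSO at 22 h with its SE for each gene by role, in VCaP (red) and LAPC4 (blue), with filled points for an adjusted p under 0.05. In VCaP values range from -1.70 (EHHADH) to 3.43 (AMACR), and in LAPC4 from -0.55 (PPARGC1A) to 0.51 (CRAT).

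All 5 genes of the carnitine shuttle were called higher in VCaP, beside 37.4% of all genes tested. Their log2 fold changes ran from 0.14 (CPT2) to 1.84 (SLC25A20), with a median of 0.84. SLC25A20, the carrier that exchanges acylcarnitine for carnitine across the inner membrane, lay at 5.04, 6.07 and 6.51 CPM (lowest, median and highest of 8 DMSO libraries) and at 19.7, 20.4 and 24.0 CPM in the 9 R1881 libraries. Every R1881 library was thus above every DMSO library, and the difference was 1.84 ± 0.0642 (log2, SE; adjusted p = 8.97e-33). CPT1A, which makes the long-chain carnitine esters at the outer membrane, went from 76.1, 78.3 and 82.6 CPM to 130.3, 142.8 and 148.6 CPM, a rise of 0.84 ± 0.0310 (adjusted p = 7.14e-32) without overlap. CRAT, the carnitine acetyltransferase, went from 25.2, 32.6 and 35.1 to 52.4, 62.6 and 76.9 CPM, a rise of 1.03 ± 0.0948 (adjusted p = 1.52e-14). The mean slope of the libraries on GC content was -0.51 under DMSO and 0.56 under R1881 (change in log2 CPM per unit of GC fraction), and with that slope as a covariate the rise of CRAT was 0.87. CROT rose by 0.47 and CPT2, which reforms the acyl-CoA inside the mitochondrion, by 0.14.

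The mitochondrial acyl-CoA dehydrogenases went separate ways. ACAD8, which acts on isobutyryl-CoA in valine breakdown and not on long chains, lay at 24.4, 25.4 and 29.2 CPM under DMSO and at 164.9, 185.2 and 194.8 CPM under R1881, a rise of 2.79 ± 0.0458 (adjusted p = 1.11e-48). ACADVL, the very-long-chain enzyme, went from 37.2, 44.3 and 56.2 to 78.1, 90.9 and 93.8 CPM, a rise of 1.01 ± 0.0619 without overlap. ACADSB, which acts on short branched chains such as those from isoleucine, went the other way, from 46.6, 49.7 and 54.9 CPM to 18.4, 22.7 and 24.3 CPM, 2.25-fold lower (log2 fold change -1.17 ± 0.0499, adjusted p = 1.24e-28). The medium-chain gene ACADM rose by 0.12 only, ACAD9, which also serves complex I assembly, had -0.05, and the short-chain gene ACADS had -0.46 with an adjusted p of 0.0615.

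Of the 6 genes of the steps after the dehydrogenases, 4 fell and 1 rose in VCaP, with a median log2 fold change of -0.34. Among all genes tested, 40% fell and 37.4% rose. HADH, the hydroxyacyl-CoA dehydrogenase for shorter chains, went from 104.4, 108.9 and 111.5 CPM to 61.8, 68.5 and 73.7 CPM, a fall of 0.67 on the log2 scale (SE 0.0291, adjusted p = 2.7e-28). ACAA2 went from 40.6, 42.2 and 49.9 to 20.6, 23.2 and 26.8 CPM (log2 fold change -0.88 ± 0.0442), and ACAT1, the thiolase of the last cleavage and of ketone bodies, from 140.7, 153.6 and 168.3 to 96.8, 106.7 and 119.6 CPM (-0.51 ± 0.0356). None of these 3 overlapped between groups. ECHS1 rose by 0.27, HADHA fell by 0.16, and HADHB had 0.07 with an adjusted p of 0.133; HADHA and HADHB lie next to each other on opposite strands and their annotated spans overlap.

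Electron transfer and the auxiliary enzymes for double bonds rose in part. ETFA, a subunit of electron transfer flavoprotein, rose by 0.43, and ETFDH, which passes its electrons to ubiquinone, from 20.6, 23.0 and 23.9 CPM to 30.7, 32.6 and 40.3 CPM (0.58 ± 0.0512), whereas ETFB had 0.14 and was not called. Among the auxiliary enzymes, which move or reduce double bonds that block the regular rounds, 4 of 5 rose and 1 fell. Of all genes tested, 37.4% rose and 40% fell. ECI2, an enoyl-CoA isomerase, went from 45.4, 48.6 and 50.7 to 67.0, 71.1 and 77.5 CPM (0.58 ± 0.0415). DECR1, the mitochondrial dienoyl-CoA reductase, went from 34.0, 38.7 and 41.3 to 18.8, 20.2 and 23.4 CPM, a log2 fold change of -0.87 ± 0.0492. Its peroxisomal counterpart DECR2 had the opposite sign at a far lower level, with 0.946, 1.44 and 2.52 CPM under DMSO and 2.39, 2.85 and 4.68 CPM under R1881, ranges that overlap, and a rise of 1.07 ± 0.198 that was 0.79 with the GC slope as a covariate. ECI1 and ECH1 rose by 0.56 and 0.36, with adjusted p-values of 0.00483 and 0.0401, both without the GC slope as a covariate.

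In peroxisomes, 4 of 6 genes of beta-oxidation rose and 1 fell, beside 37.4% and 40% of all genes, with a median of 0.61. AMACR went from 3.46, 3.84 and 5.21 CPM to 39.7, 43.3 and 50.0 CPM, a log2 fold change of 3.43 ± 0.0748 (adjusted p = 1.14e-42). The readthrough gene C1QTNF3-AMACR, which shares its strand, had 0 to 5 reads in a library. ACAA1, the peroxisomal thiolase, went from 23.1, 30.3 and 34.6 to 53.0, 56.2 and 62.8 CPM (0.93 ± 0.0566), HSD17B4, the multifunctional enzyme for branched and very long chains, rose by 0.64 and ACOX3, an oxidase of the first step, by 0.57. EHHADH, the other multifunctional enzyme, moved the other way at low counts of 6 to 40 reads, from 0.866, 1.54 and 1.97 CPM to 0.292, 0.398 and 0.634 CPM, a log2 fold change of -1.70 ± 0.199 (adjusted p = 4.13e-11). SCP2, the sterol carrier with a thiolase isoform, had -0.06. Of the alpha-oxidation and enoyl reduction genes, PHYH, the phytanoyl-CoA hydroxylase, fell by 0.25 and PECR by 0.24, and HACL1 had 0.05. PPARA, the receptor that turns on many of these genes, rose by 0.20.

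**Figure D3:**
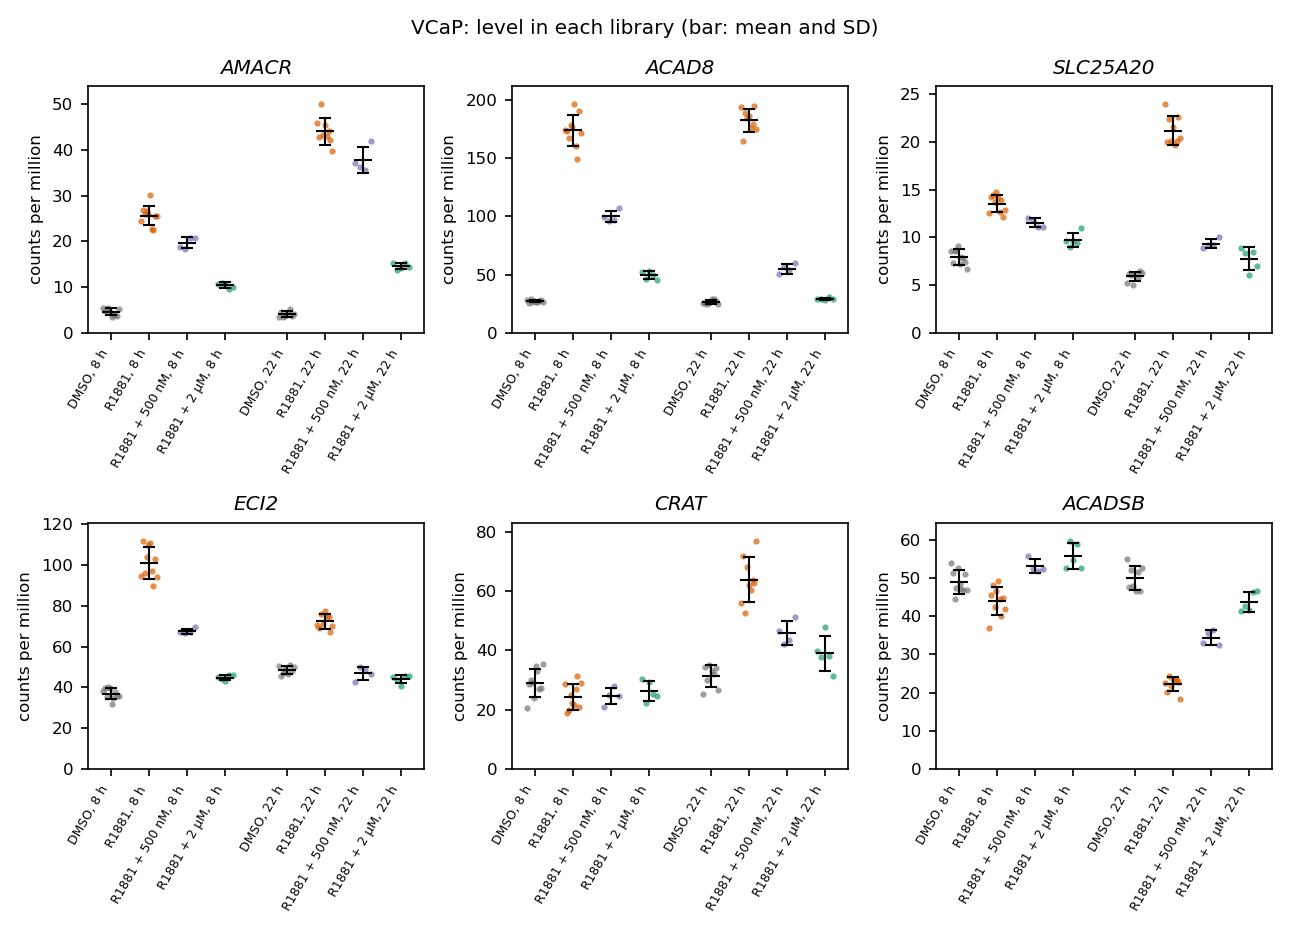
Level in CPM in each VCaP library of 6 genes under DMSO, R1881 and R1881 plus 500 nM or 2 µM darolutamide at 8 and 22 h, with the mean and SD as bars and axes that start at 0. AMACR stays between 35.5 and 41.9 CPM with 500 nM darolutamide at 22 h, whereas ACAD8 and SLC25A20 are already well below their R1881 level at that dose.

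Darolutamide at 2 µM lowered the genes with the largest rises and raised those with the largest falls in VCaP at 22 h. Against R1881 alone, 10 of 35 genes were higher and 16 lower, and the 26 called genes stand beside 66.9% of all genes tested. The median was -0.12 over the 35 genes and 0.06 over all genes, and 3 genes passed an absolute log2 fold change of 1, against 15.7% of all genes. The same R1881 libraries serve in this comparison and in that of R1881 with DMSO, so that values are set side by side and not tested for reversal. ACAD8 lay at 29.1, 28.7, 27.6, 30.7 and 28.6 CPM in the 5 libraries, 6.31-fold lower than with R1881 alone (log2 fold change -2.66 ± 0.0544). SLC25A20 lay at 8.91, 8.34, 6.01, 8.45 and 7.03 CPM (-1.45 ± 0.0727), and CPT1A between 76.4 and 82.9 CPM (-0.82 ± 0.0357). AMACR, at 15.2, 13.7, 14.1, 15.3 and 14.3 CPM, was 3.03-fold lower than with R1881 alone. Every library of these 4 genes was below every R1881 library.

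Of the 9 genes that R1881 had lowered, 8 were higher with 2 µM darolutamide, and HADHA had a log2 fold change of -0.0021 that was not called. The same R1881 libraries picked these 9 genes and serve in this comparison, which favours higher values in advance. Their count is therefore not a separate result, and 66.9% of all genes tested were called here in either direction. ACADSB lay at 41.4, 42.7, 41.5, 46.3 and 46.6 CPM, 1.97-fold above R1881 alone (log2 fold change 0.98 ± 0.0557), and HADH at 127, 121, 125, 133 and 131 CPM (0.90 ± 0.0325). The HADH values were above those of all DMSO libraries, whose highest was 111.5 CPM. ACAA2, DECR1 and ACAT1 each had a log2 fold change of 0.52. EHHADH, at 0.765, 0.475, 0.678, 0.740 and 0.890 CPM, overlapped the R1881 libraries, and its log2 fold change of 0.65 had an adjusted p of 0.0188. Without overlap between the groups, 9 of the 36 genes were higher and 15 lower, beside 43.5% of all genes tested.

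Some genes were not at their DMSO level with R1881 plus 2 µM darolutamide. Against DMSO at 22 h, 14 of 35 genes were higher and 9 lower, beside 59.0% of all genes called. AMACR was 3.57-fold above DMSO (log2 difference 1.84 ± 0.0844, adjusted p = 3.01e-26), SLC25A20 0.39 above it on the log2 scale, CRAT 0.32 and ACAD8 0.13. CROT was 0.56 above DMSO, with 47.7 to 52.7 CPM in the high-dose libraries against 42.7 to 52.1 under R1881 alone, and did not differ from R1881 beyond the spread (0.09, adjusted p = 0.185). ECHS1 was 0.41 and ETFA 0.27 above DMSO, and ACAD9, which R1881 alone left at -0.05, was 0.35 above it. EHHADH stayed 1.05 below DMSO on the log2 scale, and ACAA2 and DECR1 had -0.36 and -0.35.

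The low dose of 500 nM had moved most of these genes as well. Against R1881 alone at 22 h, 9 genes were higher and 16 lower, beside 53.0% of all genes called. ACAD8 lay at 50.1, 56.2, 53.8 and 60.3 CPM and SLC25A20 at 8.92, 9.23, 9.15 and 10.0 CPM, with log2 fold changes of -1.73 and -1.19. AMACR, at 37.1, 36.3, 35.5 and 41.9 CPM, overlapped the R1881 libraries and had a log2 fold change of -0.22 (adjusted p = 0.0107). The doses were also compared directly, and 5 genes were higher and 6 lower at 2 µM than at 500 nM, beside 20.2% of all genes called. The largest dose differences were those of AMACR (-1.38 ± 0.0861), ACAD8 (-0.93 ± 0.0600) and ACADVL (-0.38 ± 0.0836), and ACADSB was 0.35 higher at the high dose. With the libraries' GC slope as a covariate 17 genes differed between doses. ECI2 was at 42.8, 49.8, 48.4 and 46.4 CPM with 500 nM and at 44.9, 43.7, 40.8, 45.6 and 45.6 CPM with 2 µM, and was not called between doses.

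At 8 h the rises of AMACR and ACAD8 were already large in VCaP, whereas ACADVL had a rise of 0.23 and CRAT was lower. R1881 raised 15 of 35 genes and lowered 13, beside 66.9% of all genes called, and 4 genes passed an absolute log2 fold change of 1, against 14.6% of all genes. ACAD8 lay at 25.8, 26.9 and 28.6 CPM under DMSO and at 149.8, 174.3 and 196.7 CPM under R1881 (log2 fold change 2.69), and AMACR at 3.47, 4.66 and 5.47 and at 22.5, 25.8 and 30.1 CPM (2.49). ECI2 went from 31.8, 37.0 and 40.3 to 89.6, 100.1 and 111.8 CPM, a rise of 1.45 ± 0.0384 (adjusted p = 1.91e-38). ACADM, which had 0.12 at 22 h, rose by 0.56. The fourth gene past that limit was EHHADH, with -1.25.

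**Figure D4:**
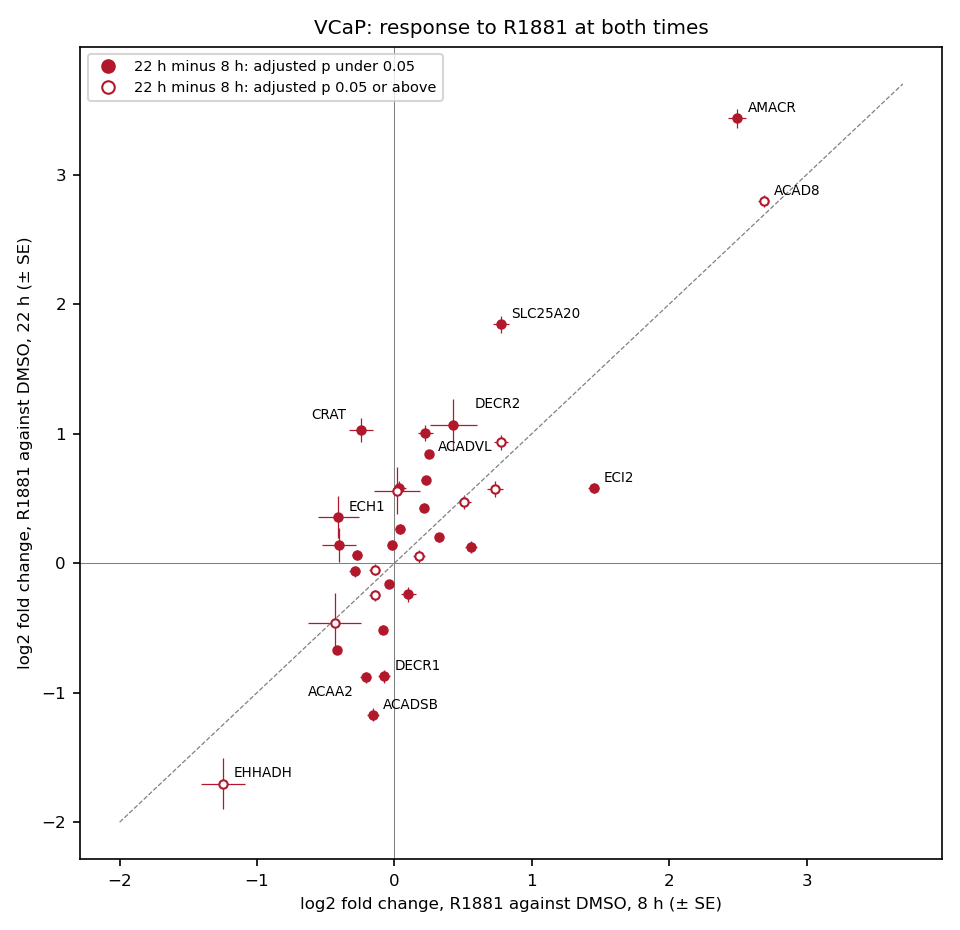
Log2 fold change of R1881 against DMSO in VCaP at 8 h (horizontal axis) and 22 h (vertical axis) with SE on both, for 35 genes, where the dashed line marks equal values. Filled points have an adjusted p under 0.05 for the difference between times, with CRAT, SLC25A20 and AMACR above the line and ECI2 and ACADSB below it.

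The response at 22 h differed from that at 8 h for 25 of 35 genes, 15 with a higher and 10 with a lower log2 fold change at 22 h, beside 60.4% of all genes called. CRAT changed sign, from a fall of 0.24 (SE 0.0892, adjusted p = 0.0137) at 8 h to the rise of 1.03 at 22 h, a difference of 1.27 ± 0.130. ECH1 also changed sign between called values (-0.41 and 0.36), and its libraries overlapped at both times. The mean GC slope was 0.24 under DMSO and -0.18 under R1881 at 8 h, against -0.51 and 0.56 at 22 h. Both sign changes are given without that slope as a covariate, and its part in them was not tested. SLC25A20 had 0.77 at 8 h and gained 1.07 ± 0.0857, AMACR gained 0.94 ± 0.101, and ACADVL, with 0.23 at 8 h, gained 0.78. ECI2 lost 0.87 ± 0.0561, the only gene with a rise above 1 at 8 h that was smaller at 22 h. The falls of ACADSB, DECR1 and ACAA2 were larger at 22 h by 1.01, 0.80 and 0.67. ACAD8 differed by 0.11 ± 0.0591, which did not pass the test. Of the 35 genes, 14 rose at both times, 6 fell at both, 2 fell and then rose, and none rose and then fell.

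At 8 h, 2 µM darolutamide raised 11 genes and lowered 11 against R1881, beside 52.1% of all genes called, and 500 nM raised 4 and lowered 10, beside 30.6%. ACAD8 lay at 51.9, 46.5, 53.3, 50.0 and 45.6 CPM with the high dose and at 99.5, 96.5, 97.1 and 107 CPM with the low dose, log2 fold changes of -1.82 and -0.80. ECI2 lay at 44.9, 44.2, 42.9, 45.9 and 46.2 CPM and at 67.0, 66.6, 67.2 and 69.4 CPM (-1.17 and -0.58). The 2 doses did not overlap for either gene, and between doses 2 of 35 genes were higher and 6 lower at 2 µM, beside 17.6% of all genes called. With R1881 plus 2 µM darolutamide, 11 genes were above DMSO at 8 h and 2 below, beside 27.5% of all genes called, and 8 genes in all were called with control libraries 1 to 5. ACAD8 was then 0.87 ± 0.0485 above DMSO and AMACR 1.19.

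In LAPC4 the pathway moved little. At 22 h R1881 raised CRAT, ECI2, ACAA1 and ACAT1 and lowered PPARGC1A, ACADSB, ETFDH and HADHB, 8 of 35 genes, beside 13.3% of all genes called (6.83% higher and 6.45% lower), and no log2 fold change passed 1, against 0.527% of all genes. With the GC slope as a covariate 14 genes were called. The summed level of the 36 genes was 2847 CPM under DMSO and 2890 under R1881. ECI2 lay at 117, 119 and 123 CPM under DMSO and at 133.6, 142.5 and 154.6 CPM under R1881, a rise of 0.26 ± 0.0302 (adjusted p = 1.21e-09). ACADSB lay at 134.4, 146.5 and 161.6 CPM and at 93.9, 107.5 and 115 CPM, a log2 fold change of -0.46 ± 0.0458 (adjusted p = 6.9e-12). These were the 2 genes of the 36 whose libraries did not overlap, beside 3.83% of all genes tested. They were also called within the control libraries numbered 1 to 5 and within those numbered 6 and above. The log2 fold changes were 0.23 and 0.28 for ECI2 and -0.44 and -0.48 for ACADSB. From number 6 on, DMSO at 22 h held only libraries 6 and 7.

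**Figure D5:**
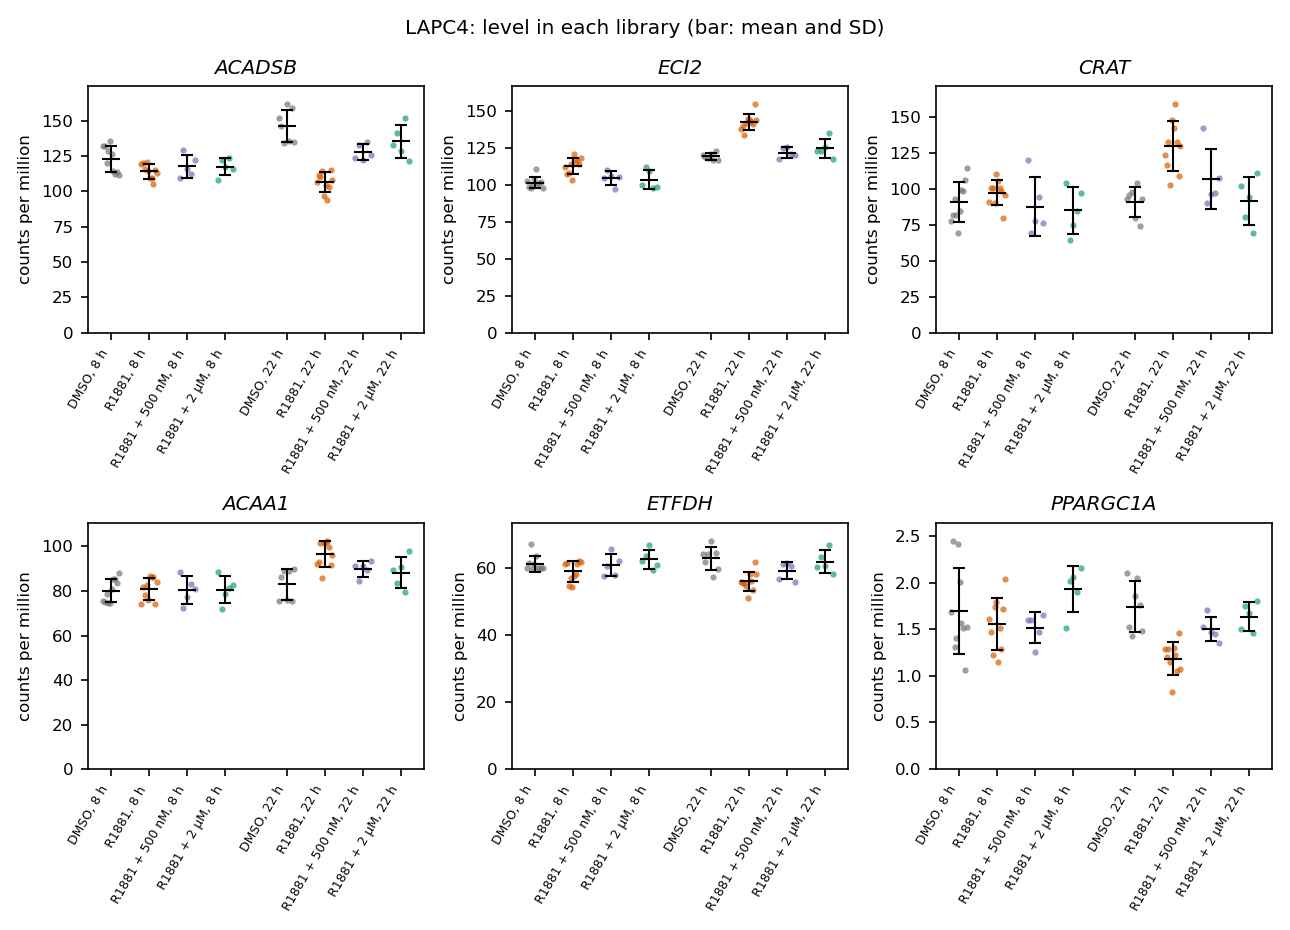
Level in CPM in each LAPC4 library of 6 genes under DMSO, R1881 and R1881 plus 500 nM or 2 µM darolutamide at 8 and 22 h, with the mean and SD as bars and axes that start at 0. At 22 h all 10 R1881 libraries of ACADSB lie at or below 115 CPM and those of ECI2 at or above 133.6 CPM, outside the range of the DMSO libraries.

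The other called genes of LAPC4 overlapped between groups. CRAT went from 74.4, 92.6 and 104.1 CPM to 102.5, 130.9 and 158.7 CPM, a rise of 0.51 ± 0.106 (adjusted p = 0.000255) that had an adjusted p of 0.056 within control libraries 1 to 5. PPARGC1A, the coactivator that drives mitochondrial genes, lay at 1.43, 1.76 and 2.11 CPM and at 0.823, 1.21 and 1.46 CPM (-0.55 ± 0.127, adjusted p = 0.000919), and was not measured above the filter in VCaP. ACAA1 rose by 0.22 ± 0.0475 and ETFDH fell by 0.17 (SE 0.0355). HADHB had -0.13 and ACAT1 0.10, with adjusted p-values of 0.00374 and 0.0335. Within control libraries 6 and above, where DMSO had only libraries 6 and 7, ACAA1, PPARGC1A, ETFDH, HADHB and ACAT1 were not called. Within libraries 1 to 5, HADHB, CRAT and ACAT1 were not. AMACR lay at 6.81, 6.99 and 8.43 CPM under DMSO and at 5.93, 6.66 and 7.75 under R1881 (-0.13 ± 0.0678, adjusted p = 0.247), and ACAD8 had 0.01 ± 0.0409.

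With 2 µM darolutamide at 22 h, 6 LAPC4 genes were above R1881 alone and 4 below, beside 10.5% of all genes called. ACADSB lay at 133, 141, 129, 152 and 121 CPM, 0.35 above R1881 on the log2 scale and without overlap, and ECI2 at 123, 123, 126, 135 and 117 CPM (-0.19). PPARGC1A was 0.47 higher (adjusted p = 0.0222) and CRAT 0.50 lower (adjusted p = 0.00196), and HACL1, ETFDH, HADHB and ETFA were 0.09 to 0.15 higher. The count was 4 without high-dose replicate 4 and 6 without high-dose replicate 2. With 500 nM, ACADSB was 0.26 higher and ECI2 0.22 lower, the 2 genes called, beside 5.89% of all genes, and 4 were called without low-dose replicate 1. Between doses no gene was called by edgeR, beside 0.258% of all genes, with 1 at an unadjusted p under 0.05 and 0 by DESeq2. R1881 plus 2 µM darolutamide did not differ from DMSO for any of the 35 genes by edgeR, beside 0.0165%, with 2 at an unadjusted p under 0.05 and 0 by DESeq2.

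At 8 h in LAPC4, ECI2 alone was called under R1881, with a rise of 0.16 (adjusted p = 7e-05), beside 2.64% of all genes. Within control libraries 1 to 5 it was not called (0.12, adjusted p = 0.18), and with the GC slope as a covariate 3 genes were called. With 2 µM darolutamide CPT1A and ECI2 were 0.10 and 0.13 lower than with R1881, beside 1.54%, and 0 or 1 gene was called without any single high-dose library. With 500 nM no gene was called by edgeR, beside 0.626%, with 2 at an unadjusted p under 0.05 and 0 by DESeq2. Between doses (beside 0.0275%) and between R1881 plus 2 µM darolutamide and DMSO (beside 0.0110%) none was called by edgeR either, with 5 and 3 at an unadjusted p under 0.05 and 0 by DESeq2 in both. ACADSB was the 1 gene whose R1881 response differed between 22 and 8 h (-0.35, adjusted p = 8.71e-05), beside 3.21% of all genes.

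The response to R1881 at 22 h differed between the lines for 26 of 34 genes, 17 with a higher and 9 with a lower log2 fold change in VCaP, beside 68.5% of all genes tested in both. AMACR differed by 3.51, ACAD8 by 2.72 ± 0.0604 and SLC25A20 by 1.80, all of them not called in LAPC4. EHHADH had -1.60 ± 0.189, ACAA2 -1.12 and ACADSB -0.77 ± 0.0761, the last of which fell in both lines. ETFDH and ACAT1 were called in both lines in opposite directions, ETFDH with 0.58 in VCaP and -0.17 in LAPC4 and ACAT1 with -0.51 and 0.10, and their differences of 0.69 ± 0.0649 and -0.67 ± 0.0528 passed the test. ECI2, ACAA1 and CRAT rose in both lines, and more in VCaP by 0.27, 0.66 and 0.46. At 8 h 22 of 34 genes differed, 11 in each direction, beside 58.5% of all genes.

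Genes at the borders of the pathway were counted from a list of 61 others, of which 60 were in the table (further dehydrogenases and oxidases, peroxisomal carriers and biogenesis factors, thioesterases, genes of ketone body, propionate and branched-chain metabolism, and regulators). In VCaP at 22 h, 26 of the 58 tested rose and 23 fell, beside 77.4% of all genes called, and in LAPC4 3 of 51 rose and 4 fell, beside 13.3%. Both shares are near those of all genes. In VCaP, PDK4, the kinase that shuts pyruvate out of the mitochondrion's oxidative route, had a log2 fold change of 4.93 at 8 h and -1.72 at 22 h. SLC25A42, a CoA carrier, and ACADL, the long-chain dehydrogenase, rose by 2.07 and 2.04 at 22 h, while PPARG and HSD17B8 fell by 1.83 and 1.81. In LAPC4, ACADL rose by 0.24, and PPARGC1B, a relative of PPARGC1A at low counts, rose by 1.57 ± 0.343.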

How the data were processed

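Poly-A RNA of VCaP and LAPC4 cells was sequenced from stranded libraries as single-end reads. The authors used STAR (GRCh38) and featureCounts of the Subread package, and deposited raw counts per gene in 1 table, of which all columns were used. The submitters' notes also name bcl2fastq 2.17 and DESeq2. The annotation, the strand setting and the other versions are not given in the sources used here, so that overlapping genes (such as CRAT and PTPA, DECR2 and NME4, ACADVL and DLG4) cannot be told apart with certainty. Groups and replicate numbers came from the sample labels. The methods give fewer biological replicates per condition than some groups hold libraries, and p-values measure the spread between libraries, which may in part be technical.

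The remaining values were computed from the counts in R 4.3.3. After a filter (10 or more reads in 4 or more libraries of a line), counts were fitted in edgeR 4.0.16 (TMM factors, glmQLFit, glmQLFTest), all 8 groups of a line together, and both lines together for differences between lines. A gene was called at an adjusted p (Benjamini-Hochberg, over all genes tested) below 0.05. The SE was taken as the size of the log2 fold change over the root of its F statistic. CPM use TMM factors, lengths are the union of GENCODE 44 exons, and promoters come from RefSeq. GC content was matched for 83.5% of VCaP and 83.1% of LAPC4 genes. Counts were simulated for R1881 against DMSO at 22 h, with 200 genes of each line changed and all others left level. In VCaP, 69% of genes changed by 0.5 and 87% of those changed by 1 (log2) were recovered among 19266 genes. In LAPC4 it was 66% and 94% among 18204. Of the calls, 1.89% in VCaP and 5.88% in LAPC4 were false. Far more genes were called in the data, so that recovery there can differ. Alternatives were RLE factors, DESeq2 1.42.0, no filter, fits of the compared groups only, control replicates 1 to 5 or 6 and above, a GC slope covariate, a replicate block and the omission of each darolutamide library. The genes, the lists and the rules were chosen with earlier results of these data known. All 36 genes are named within their role. Given in full are, of those called with R1881 at 22 h, the 6 largest rises and 6 largest falls in VCaP and the 4 and 4 in LAPC4, and those called in both lines. The 3 largest dose differences at 22 h per line are named, and of the genes outside the pathway the 3 largest rises and falls in VCaP and 2 in LAPC4. Some genes that these rules name are not reported here.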

Additional observations from a re-analysis of the deposited data

Results flagged for a closer look

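Of 92 groups of 4 to 10 libraries tested for a library that stands apart, 3 had one, where chance alone gives about 1 in 20 groups. ACADVL in VCaP under R1881 at 22 h had 78.1 CPM in replicate 3, below a group median of 90.9. ACAA2 in VCaP under DMSO at 22 h had 49.9 CPM in replicate 4, above a median of 42.2. ECI2 in LAPC4 under R1881 at 22 h had 155 CPM in replicate 9, above a median of 142.

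The response to R1881 at 22 h differed between the lines for 16 of the genes given with full values, beside 68.5% of all genes tested in both lines. These genes were picked by their response to R1881 at 22 h in the same data, so their count is not a separate result. The log2 fold change in VCaP minus that in LAPC4 was positive for AMACR (3.51), ACAD8 (2.72), SLC25A20 (1.80), ACADVL (0.94), DECR2 (0.83), ETFDH (0.69), ACAA1 (0.66), CRAT (0.46), ECI2 (0.27) and HADHB (0.14). It was negative for EHHADH (-1.60), ACAA2 (-1.12), DECR1 (-0.86), HADH (-0.78), ACADSB (-0.77) and ACAT1 (-0.67).

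In VCaP, the response at 22 h minus that at 8 h was positive for CRAT (1.27), SLC25A20 (1.07), AMACR (0.94), ACADVL (0.78), DECR2 (0.64) and ETFDH (0.55), and negative for ACADSB (-1.01), ECI2 (-0.87), DECR1 (-0.80), ACAA2 (-0.67), ACAT1 (-0.43) and HADH (-0.25). In LAPC4, ACADSB had -0.35. All of these differences passed an interaction test in edgeR with an adjusted p under 0.05. Between the times, 60.4% of all genes tested in VCaP and 3.21% in LAPC4 did so.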

How the results depend on the processing

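With RLE factors or DESeq2, all 25 counts of called genes stayed within 1.5 times their value, and no log2 fold change of a named gene reversed under any alternative. Within control replicates 1 to 5, the count was 8 in place of 13 for R1881 plus 2 µM darolutamide against DMSO in VCaP at 8 h; in LAPC4 it was 5 (R1881, 22 h), 0 (R1881, 8 h), 1 (2 µM against R1881, 8 h) and 1 (R1881 plus 2 µM against DMSO, 8 h). Within replicates 6 and above, LAPC4 had 3 (R1881, 22 h), 3 (2 µM against R1881, 22 h), 1 (the same at 8 h) and 1 (500 nM, 8 h). In that fit DMSO at 22 h held only LAPC4 libraries 6 and 7. With the GC slope as a covariate, VCaP had 17 genes between doses at 22 h in place of 11; LAPC4 had 14 in place of 8 (R1881) and 5 in place of 2 (500 nM) at 22 h, 1 between doses, 1 for R1881 plus 2 µM against DMSO, 3 (R1881), 4 (2 µM) and 2 (500 nM) at 8 h, and 4 for the difference between times. Without a filter, 2 µM against R1881 in LAPC4 gave 6 at 22 h and 0 at 8 h, and fitting only the compared groups gave 0 at 8 h. The cause of these moves was not tested.

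Replicate numbers did not pair the libraries: same-numbered libraries had a mean correlation of deviations of -0.00511 over 149 pairs in VCaP and 0.0549 over 161 in LAPC4, and 7 of 55 and 6 of 57 libraries were closest to one of their own number. With the number as a replicate block, VCaP counts were 13 in place of 23 (R1881 plus 2 µM against DMSO, 22 h), 7 in place of 13 (8 h), 5 in place of 14 (500 nM, 8 h) and 5 in place of 8 (between doses, 8 h), and LAPC4 had 0 in place of 2 (2 µM, 8 h). With block and GC slope together, VCaP had 17 and 14 between doses at 22 and 8 h; LAPC4 at 22 h had 16 (2 µM), 10 (500 nM), 1 (between doses) and 4 (R1881 plus 2 µM against DMSO), and at 8 h 3 (R1881), 1 (500 nM), 2 (between doses) and 5 (R1881 plus 2 µM against DMSO).

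Leaving out 1 darolutamide library gave 26 to 27 and 18 to 22 genes for 2 µM against R1881 in VCaP at 22 and 8 h, 22 to 24 and 12 to 13 for 500 nM, 8 to 13 and 5 to 9 between doses, and 19 to 21 and 11 to 13 for R1881 plus 2 µM against DMSO. The count between doses at 8 h was 5 without low-dose replicate 4 or high-dose replicate 2. In LAPC4 the ranges were 4 to 11 and 0 to 1 for 2 µM, 2 to 4 and 0 to 0 for 500 nM, and 0 to 0 for the other comparisons. Few reads lay behind some values at 22 h under R1881: EHHADH had 6 to 12 and DECR2 36 to 100 reads in a VCaP library.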

Other observations

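Among the neighbouring genes, 2 µM darolutamide at 22 h in VCaP lowered SLC25A42 by 1.76 and ACADL by 1.23 on the log2 scale, and raised PPARG by 1.01. The R1881 response of PDK4 was lower at 22 h than at 8 h (log2 difference -6.65 ± 0.537). PDK4 had a log2 fold change of -4.98 with 2 µM darolutamide against R1881 at 8 h and of 0.31 at 22 h, where it was not called. Under DMSO, PPARGC1B was 5.90 higher in VCaP than in LAPC4 on the log2 scale, and ACADL had -3.37.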
